A study of Mus musculus with 16 samples.

Results

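The genes described here are 10 markers of the contractile and mural cells of the heart: Acta2, Tagln, Cnn1, Myh11, Actg2, Mylk and Myocd of smooth muscle and myofibroblasts, and Rgs5, Pdgfrb and Cspg4 of pericytes. They were taken by name from the platform annotation, each had 1 probe set, and all 10 were among the 19505 genes tested. Hearts came from male wild-type C57BL/6 mice aged 10 weeks, with 4 hearts and 4 arrays in each of 4 groups. One group had sham surgery, and in the other groups the left anterior descending coronary artery was ligated for 30 min and then reperfused for 6, 24 or 72 h. The sham labels carry no hour, so the same 4 sham arrays served every time, and an effect of time after surgery cannot be told apart from an effect of reperfusion. RNA came from hearts with no stated dissection, and in such tissue fewer cells of a type and less RNA per cell cannot be told apart.

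Smooth muscle cells of coronary arteries and arterioles set vessel tone by sliding smooth muscle actin against smooth muscle myosin. Pericytes sit on capillaries, depend on platelet-derived growth factor signals from the endothelium, and share several markers with smooth muscle. After an infarct, cardiac fibroblasts can become myofibroblasts, which switch on some of the same actin-filament genes and make scar matrix. Many smooth muscle genes are driven by serum response factor, which binds CArG boxes, with myocardin as its partner. The 10 genes can therefore report on vessel wall, capillary mural cells and scar-forming cells at once, and Myocd on cardiomyocytes as well.

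The sequence next to contractile genes is shown because it was searched for the kind of motif this regulation is known for. Windows from the RefSeq promoter table (GRCm38.p6) were taken for 5 of the 10 genes, namely Acta2, Cnn1, Mylk, Rgs5 and Cspg4. The remaining genes were not searched, and this does not show that they lack a window in that table. The 250 bases before the annotated start of the contractile genes Acta2 (chr19:34255374-34255623, minus strand), Cnn1 (chr9:22099003-22099252, plus strand) and Mylk (chr16:34784700-34784949, plus strand) follow, each read 5′ to 3′ on the strand of the gene. Capitals mark a CArG box with 1 G or C inside its central A and T run, or an MCAT element (CATTCC on either strand). Of the sequences shown, only Acta2 held such a CArG box, and Cnn1 held neither motif.
Acta2: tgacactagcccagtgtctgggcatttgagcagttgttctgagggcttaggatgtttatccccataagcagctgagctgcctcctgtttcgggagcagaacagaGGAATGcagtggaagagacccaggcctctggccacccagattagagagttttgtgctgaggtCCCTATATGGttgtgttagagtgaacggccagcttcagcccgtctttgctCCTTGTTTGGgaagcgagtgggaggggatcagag
Cnn1: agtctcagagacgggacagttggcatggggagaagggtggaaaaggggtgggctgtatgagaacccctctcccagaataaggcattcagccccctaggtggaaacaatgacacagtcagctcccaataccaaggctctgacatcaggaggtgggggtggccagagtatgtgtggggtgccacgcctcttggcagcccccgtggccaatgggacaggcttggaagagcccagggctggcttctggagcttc
Mylk: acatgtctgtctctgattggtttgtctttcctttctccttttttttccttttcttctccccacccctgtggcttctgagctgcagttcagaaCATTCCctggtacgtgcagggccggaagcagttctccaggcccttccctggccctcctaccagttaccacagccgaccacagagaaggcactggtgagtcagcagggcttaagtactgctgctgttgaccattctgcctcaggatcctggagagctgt

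Both strands of windows of 250 bases before to 50 after the start were searched. Acta2 held 2 CArG boxes with 1 G or C inside, CCCTATATGG at positions -84 to -75 and CCTTGTTTGG at -34 to -25, counted back from the start. It also held an MCAT element at -146 to -141 and 3 E boxes (CANNTG). Mylk held an MCAT element at -158 to -153, Cnn1 and Rgs5 held 1 E box each, and Cspg4 held none of these motifs. A CArG box with an unbroken A and T run was in none of the 5 windows. Among 32851 mouse promoter windows of this length, 1.63% held the unbroken CArG box, 8.5% the form with 1 G or C inside, 14.7% the MCAT element and 72.3% an E box. These matches describe letters in a window and say nothing of binding.

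Signals are log2 values as the authors deposited them, and a change is the difference between 2 group means on that scale, given with the SE of limma's fit. A gene passed the test where its Benjamini-Hochberg adjusted p, taken over the 19505 genes, was below 0.05. The arrays carry 5222 negative control probe sets, whose 75th percentile, a log2 signal of 6.76, was taken as the background level. The largest deposited value, 19.82, exceeds what a scanner can give on a log2 scale, so the scale may be stretched, and folds apply to it only.

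The 10 genes did not move as a group. Against sham, Myh11 and Mylk fell at 6 h, Cnn1 rose while Myh11 and Rgs5 fell at 24 h, and Tagln rose while Myh11 and Myocd fell at 72 h. Acta2, Pdgfrb, Cspg4 and Actg2 passed no test against sham. The median change of the 10 genes was -0.33 at 6 h, -0.02 at 24 h and 0.02 at 72 h, beside -0.04, -0.07 and -0.09 over all genes. At 6 h 2 of 10 passed, both lower, where 20.2% of all genes passed (7.92% higher, 12.3% lower). At 24 h 1 rose and 2 fell, where 26.1% of all genes passed (13.8% higher, 12.3% lower). At 72 h 1 rose and 2 fell, where 21.8% of all genes passed (11.5% higher, 10.3% lower). The counts of the 10 genes against sham were near these backgrounds. The F test over the 4 groups passed for 8 of 10 genes, all but Acta2 and Pdgfrb, where 44.5% of all genes passed.

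**Figure D1:**
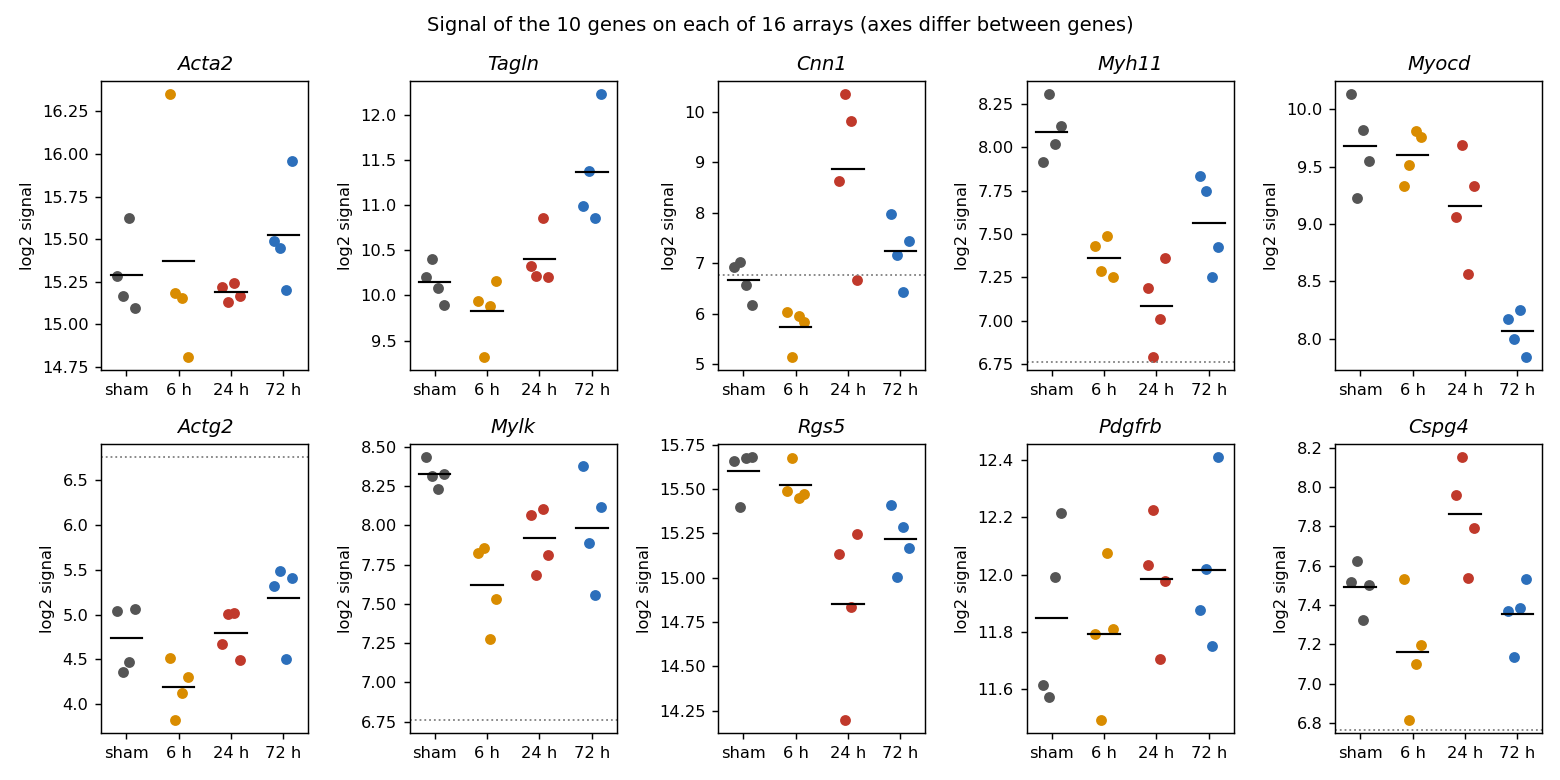
Log2 signal (vertical axes, which differ between genes) of the 10 genes on each array, grouped as sham, 6 h, 24 h and 72 h of reperfusion. Points are arrays, short lines are group means of 4, and the dotted grey line, where shown, is the background level of 6.76. Myh11 lies below sham on every reperfused array, Myocd separates at 72 h, and Acta2 groups overlap throughout.

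Acta2 encodes smooth muscle alpha-actin, the usual marker of both smooth muscle cells and myofibroblasts. Its signal on the sham arrays was 15.28, 15.17, 15.62 and 15.10, and after 6 h it was 16.35, 15.18, 15.15 and 14.81. After 24 h it was 15.22, 15.13, 15.24 and 15.17, and after 72 h 15.49, 15.45, 15.20 and 15.96. The groups overlapped at every time, and 6 h replicate 7 and 72 h replicate 23 were the high arrays. The change against sham was 0.08 ± 0.24 at 6 h (adjusted p = 0.884, 95% interval -0.43 to 0.59), -0.10 at 24 h (0.813, -0.62 to 0.41) and 0.23 at 72 h (0.549, -0.28 to 0.75), so rises above 0.75 lie outside the interval at each time. Without 6 h replicate 7 the 6 h change was -0.24 (adjusted p = 0.434), the opposite sign. With the arrays centred on the hybridization spike-ins the 72 h change passed, at 0.73 (adjusted p = 0.0294). Acta2 shares most of its coding sequence with the other muscle actins, and whether its probe set separates them was not tested.

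The lists of related genes below were chosen with earlier results of these data known. Over all genes 7.92% rose and 12.3% fell at 6 h, 13.8% and 12.3% at 24 h, and 11.5% and 10.3% at 72 h. Relatives of the actin and myosin genes were followed as 1 such list. Of 7 measured, 2 rose and 1 fell at 6 h, 4 rose and 1 fell at 24 h, and 3 rose and 2 fell at 72 h, with medians of -0.15, 0.74 and -0.10 (the last 0.40 and 0.09 under centring on hybridization and poly-A spike-ins, with 3 higher and 0 lower in both, and 2 and 0 without 72 h replicates 21 and 23). Actb, the cytoskeletal beta-actin, rose by 1.58 ± 0.19 at 24 h (adjusted p = 5.53e-06), and Myh9, a non-muscle myosin heavy chain, by 2.09 ± 0.33 (9.24e-05). Acta1, the skeletal alpha-actin, rose by 1.56 ± 0.32 at 24 h (adjusted p = 0.00115) with changes of -0.23 at 6 h and -0.10 at 72 h. Actc1, the cardiac alpha-actin, changed by -0.15 and -0.02 at 6 and 24 h and fell by 0.43 at 72 h (adjusted p = 0.0148). Mylk3, the cardiac myosin light chain kinase, fell by 1.17 ± 0.17 at 24 h (adjusted p = 3.51e-05).

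Tagln encodes transgelin, an actin-binding protein of smooth muscle that myofibroblasts also make. Its signal was 10.21, 10.40, 10.09 and 9.90 in sham hearts and 9.94, 9.32, 9.88 and 10.16 after 6 h. It was 10.33, 10.22, 10.86 and 10.21 after 24 h, and 10.996, 11.38, 10.86 and 12.23 after 72 h. All 4 arrays at 72 h lay above all sham arrays, and replicate 23 stood highest. The rise at 72 h was 1.22 ± 0.25, or 2.33-fold (adjusted p = 0.00141), while the changes of -0.32 at 6 h (0.446) and 0.25 at 24 h (0.515) did not pass. The signal at 72 h was also 1.54 above that at 6 h (adjusted p = 9.15e-05) and 0.97 above that at 24 h (0.0135). The 72 h replicates 21 and 23 carried more atrial marker signal than the others, with Myl4, an atrial light chain, at 9.76 and 9.44 against 7.69 and 7.75 on replicates 20 and 22. Without these arrays the rise against sham was 0.78 (adjusted p = 0.0410) and the difference from 24 h was 0.53 (0.229).

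Cnn1 encodes calponin 1, an actin-binding regulator of smooth muscle contraction. In sham hearts it read 6.93, 7.03, 6.56 and 6.16, and after 6 h 6.02, 5.14, 5.96 and 5.82. After 24 h it read 8.62, 10.35, 9.81 and 6.67, and after 72 h 7.97, 7.16, 6.42 and 7.45. The 24 h arrays split, with 3 of 4 above every sham array and replicate 17 inside the sham range. All 4 arrays at 6 h and 2 of 4 sham arrays were under the background level of 6.76. So were 1 array at 24 h, replicate 17, and 1 at 72 h, replicate 22. The folds given for Cnn1 take the 24 and 72 h arrays as measured. The rise at 24 h was 2.19 ± 0.53 (adjusted p = 0.00411), at least 3.97-fold with the sham arrays under the background level set at it. Without replicate 17 the rise was 2.92 (adjusted p = 8.29e-06), and without replicate 15, the highest array, it was 1.69 (0.0213). The changes at 6 h (-0.94, adjusted p = 0.262) and 72 h (0.58, 0.486) did not pass, although the 6 h and sham arrays did not overlap.

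The signal of Cnn1 at 24 h was at least 4.29-fold that at 6 h, with the 6 h arrays set at the background level (difference of measured means 3.13, adjusted p = 0.000182). At 72 h it was at least 1.4-fold that at 6 h (difference of means 1.51, adjusted p = 0.0365), a call that was lost without any 1 of 6 h replicates 8, 10 and 11 or 72 h replicates 20, 21 and 23. With 1 array left out this difference ran from 1.27 to 1.79, with adjusted p-values of up to 0.113, and quantile normalization (adjusted p = 0.06) ended the call too. Without 72 h replicates 21 and 23 together it was 1.46 (adjusted p = 0.152). From 24 to 72 h the difference was -1.61 (adjusted p = 0.0514), and without 24 h replicate 17 it was -2.35 (0.000231). Replicate 17 also had the lowest macrophage marker level of its group, a mean log2 signal of 9.99 over 7 genes where the group reached 11.38. The part of this array difference in the Cnn1 result was not tested.

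**Figure D2:**
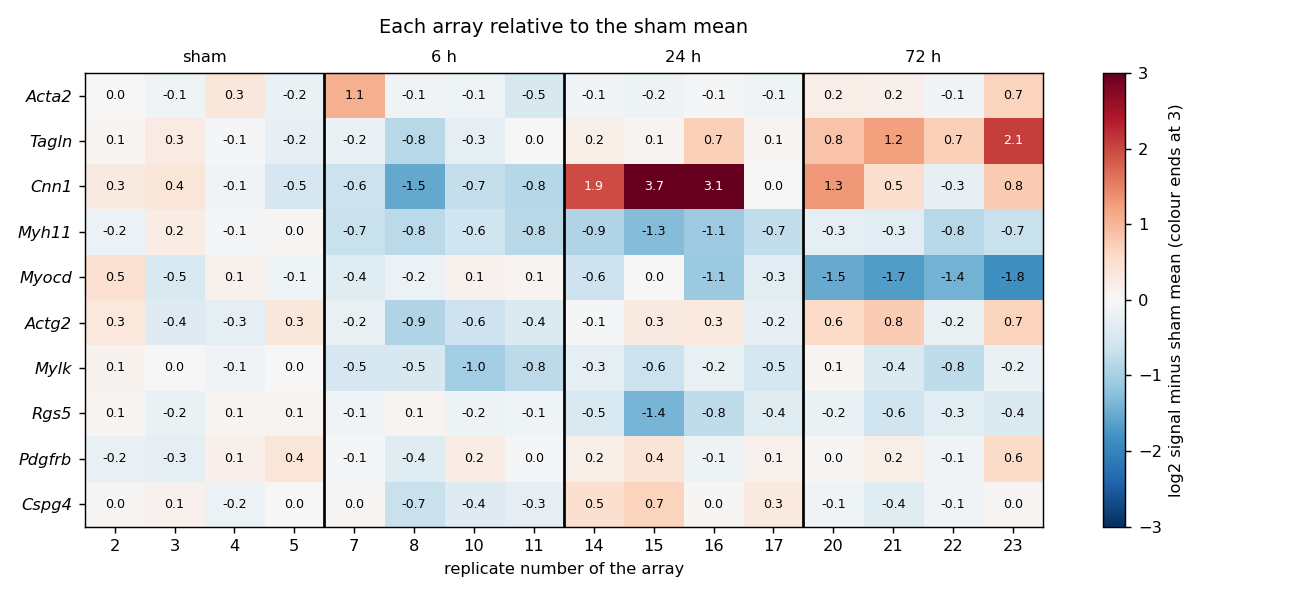
Log2 signal of each gene on each array minus the mean of the 4 sham arrays, by replicate number (horizontal axis) and gene (vertical axis). Red is above and blue below the sham mean, with the colour ending at 3. Cnn1 is red on 24 h replicates 14, 15 and 16 but not 17, Myocd is blue on all 72 h arrays, and Myh11 is blue on all reperfused arrays.

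Myh11 encodes the smooth muscle myosin heavy chain, a marker of mature smooth muscle. Its signal was 7.91, 8.31, 8.02 and 8.12 in sham hearts and 7.43, 7.29, 7.49 and 7.25 after 6 h. It was 7.19, 6.79, 7.01 and 7.36 after 24 h and 7.83, 7.75, 7.25 and 7.43 after 72 h. Every reperfused array lay below every sham array, and at each time this was 1 of 3 genes of the set without overlap, where 22.8%, 25.9% and 27.1% of all genes had none. Myh11 fell by 0.73 ± 0.16 at 6 h (adjusted p = 0.00244), by 1.00 at 24 h (9.54e-05) and by 0.53 at 72 h (0.0227). The 72 h call rested on few arrays and on the scaling. Without sham replicate 3, 72 h replicate 22 or 72 h replicate 23, the changes were -0.45, -0.42 and -0.48 (adjusted p = 0.0781, 0.0807 and 0.0699), and under hybridization and poly-A spike-in centring the changes were -0.03 (0.904) and -0.34 (0.319). Without 72 h replicates 21 and 23 together the change was -0.55 (adjusted p = 0.0972).

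Mylk encodes the myosin light chain kinase that starts smooth muscle contraction. It read 8.43, 8.31, 8.23 and 8.33 in sham hearts, and 7.82, 7.86, 7.28 and 7.53 after 6 h. All 6 h arrays lay below the sham arrays, and the fall was 0.70 ± 0.18 (adjusted p = 0.00659). Its range was 7.68 to 8.11 after 24 h and 7.55 to 8.38 after 72 h. The changes there, -0.41 (adjusted p = 0.0970) and -0.34 (0.186), did not pass.

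Actg2, the gamma-actin of visceral smooth muscle, was under the background level on all 16 arrays, with values of 3.83 to 5.49. The highest were 72 h replicates 21, 23 and 20 at 5.49, 5.42 and 5.32. Its mean at 72 h was 0.99 above that at 6 h on the log2 scale (adjusted p = 0.00231), a difference of 0.72 without 72 h replicates 21 and 23 (0.0717). No fold is given for it, and against sham its changes were -0.54, 0.06 and 0.44 (adjusted p = 0.105, 0.882 and 0.18).

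Other genes of the contractile apparatus were a list of 22, chosen with earlier results of these data known, with 21 measured. Over all genes 7.92% rose and 12.3% fell at 6 h, 13.8% and 12.3% at 24 h, and 11.5% and 10.3% at 72 h. The listed genes rose more often than they fell at 24 and 72 h. At 6 h 5 rose and 4 fell, and at 24 and 72 h 10 rose and 3 fell, with medians of -0.07, 0.44 and 0.44. Poly-A centring gave 3 higher and 7 lower at 6 h (median -0.41), and hybridization centring 4 and 5 at 6 h and 13 and 0 at 72 h (median 0.93). At 24 h Actn1, the alpha-actinin of focal contacts, rose by 3.21 ± 0.38 (adjusted p = 4.20e-06), and Tpm4, a tropomyosin, by 1.89 ± 0.26 (2.04e-05). Flna, the actin cross-linker filamin A, rose by 1.83 ± 0.26 (adjusted p = 2.58e-05), and Cnn2, a calponin of non-muscle cells, by 1.67 ± 0.26 (8.72e-05). Those genes are widely made outside muscle, leukocytes and fibroblasts included. Des, the intermediate filament of muscle and a pericyte marker, rose by 0.69, 1.06 and 0.58 at 6, 24 and 72 h (adjusted p = 0.00800, 0.000151 and 0.0227), and cardiomyocytes make it as well.

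Some partners went the way of Myh11 instead, and these were picked after their values were seen. Smtn, which encodes smoothelin, a protein of contractile smooth muscle, fell by 0.57, 0.85 and 0.44 at the 3 times (adjusted p = 0.00760, 0.000192 and 0.0358). Ppp1r12b, a targeting subunit of myosin phosphatase, fell by 0.63, 1.04 and 0.91 (adjusted p = 0.0293, 0.000582 and 0.00237). The others that fell were Ppp1r14a and Tpm2 at 6 h, Ntn4, a basement membrane protein, at 24 h and Synpo2 at 72 h. Ntn4, like Lmod1 and Synm of the list, had all group means under the background level. Myl9, the regulatory light chain of smooth muscle myosin, changed by -0.33, -0.12 and 0.44, and none of these passed (adjusted p = 0.309, 0.716 and 0.135).

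In the list for calcium, cyclic GMP and receptor signalling of smooth muscle, the calls at 6 h were all lower, and those at later times turned with the scaling. Of 12 measured of 18, 0 rose and 6 fell at 6 h, 1 rose and 5 fell at 24 h, and 1 rose and 2 fell at 72 h. Medians were -0.49, -0.31 and -0.18. Of all genes, 7.92%, 13.8% and 11.5% passed as higher at these times, and 12.3%, 12.3% and 10.3% as lower. Hybridization spike-in centring gave 0 higher and 9 lower at 6 h, 2 and 2 at 24 h and 5 and 0 at 72 h, where the median was 0.31. Poly-A centring gave 1 higher and 0 lower at 72 h with a median of 0.01, and without 72 h replicates 21 and 23 none passed there. Agtr1a, an angiotensin II receptor, fell by 1.73 ± 0.19 at 24 h (adjusted p = 2.50e-06), and Cacna1c, the L-type calcium channel pore that cardiomyocytes also use, by 1.38 ± 0.19 (2.87e-05). Gucy1b1, a subunit of the nitric oxide receptor, fell by 1.21 ± 0.15 at 6 h (adjusted p = 8.23e-06), and Rgs3, a regulator of G protein signalling, by 1.19 ± 0.24 (0.00112).

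Myocd encodes myocardin, the partner of serum response factor in smooth muscle and in cardiomyocytes. Its signal was 10.13, 9.22, 9.82 and 9.55 in sham hearts and 9.33, 9.51, 9.81 and 9.76 after 6 h. It was 9.06, 9.68, 8.57 and 9.33 after 24 h, and 8.17, 8.00, 8.25 and 7.84 after 72 h. All 72 h arrays lay below every other array of the study. The fall at 72 h was 1.61 ± 0.22, or 3.06-fold (adjusted p = 2.10e-05), after changes of -0.08 at 6 h (0.871) and -0.52 at 24 h (0.0899). The 72 h level was also 1.54 below that at 6 h and 1.10 below that at 24 h (change -1.54, adjusted p = 2.07e-05, and change -1.10, adjusted p = 0.00189). The direction and the call at 72 h held under each of the 13 other settings and with each array left out.

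Serum response factor itself, Srf, changed by 0.14 at 6 h (adjusted p = 0.703) and 0.48 at 24 h (0.0706), and fell by 0.63 ± 0.19 at 72 h (0.0230). Over the 18 listed regulators, 2 rose and 6 fell at 6 h, 2 rose and 2 fell at 24 h, and 2 rose and 4 fell at 72 h. Medians were -0.20, -0.30 and -0.23, and with centring on hybridization spike-ins they were 0.01 at 24 h (5 higher, 1 lower) and 0.27 at 72 h (4 higher, 0 lower). Median centring gave 2 higher and 5 lower at 24 h and 2 and 7 at 72 h. As deposited, 7.92%, 13.8% and 11.5% of all genes passed as higher at 6, 24 and 72 h, and 12.3%, 12.3% and 10.3% as lower. Csrp2, a cysteine-rich LIM protein of smooth muscle, rose by 3.15 ± 0.22 at 72 h (adjusted p = 6.78e-09). Hey2, a repressor downstream of Notch, fell by 1.12 ± 0.24 at 6 h (adjusted p = 0.00191). Klf5 at 6 h and Foxs1 at 24 h also passed, with changes of 1.26 and 1.15 (adjusted p = 9.25e-05 and 0.000325), while their group means stayed under the background level.

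Rgs5 encodes a regulator of G protein signalling that is abundant in cardiac pericytes. It read 15.66, 15.40, 15.67 and 15.68 in sham hearts and 15.49, 15.68, 15.45 and 15.47 after 6 h. It read 15.14, 14.20, 14.83 and 15.24 after 24 h and 15.41, 15.004, 15.29 and 15.16 after 72 h. All 24 h arrays lay below all sham arrays, and replicate 15 was the lowest. The fall at 24 h was 0.75 ± 0.18, or 1.68-fold (adjusted p = 0.00453), and without replicate 15 it was -0.53 (0.0159). The changes at 6 h (-0.08, adjusted p = 0.836) and 72 h (-0.39, 0.148) did not pass. From 6 to 24 h the change was -0.67 (adjusted p = 0.00983). Centring on hybridization spike-ins ended both calls, with -0.44 (adjusted p = 0.0932) and -0.14 (0.543), and centring on poly-A spike-ins ended the second, with -0.43 (0.202).

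Pdgfrb encodes the receptor by which pericytes receive platelet-derived growth factor B, and fibroblasts carry it too. Its values were 11.57 to 12.22 in sham hearts, 11.49 to 12.07 after 6 h, 11.71 to 12.23 after 24 h and 11.75 to 12.41 after 72 h, so every group overlapped the others. Changes were -0.06 ± 0.18, 0.14 and 0.17 (adjusted p = 0.893, 0.648 and 0.573), and hybridization spike-in centring gave 0.66 at 72 h (0.0321). Cspg4 encodes the NG2 proteoglycan of pericytes. Its values were 7.51, 7.62, 7.32 and 7.503 in sham hearts, 7.53, 6.82, 7.10 and 7.20 after 6 h, 7.96, 8.15, 7.54 and 7.79 after 24 h, and 7.37, 7.13, 7.38 and 7.53 after 72 h. It passed no test against sham (changes -0.33, 0.37 and -0.13, adjusted p = 0.194, 0.112 and 0.614). All 24 h arrays lay above all 6 h arrays, a difference of 0.70 ± 0.17 (adjusted p = 0.00328), and from 24 to 72 h the change was -0.50 (0.0506).

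**Figure D3:**
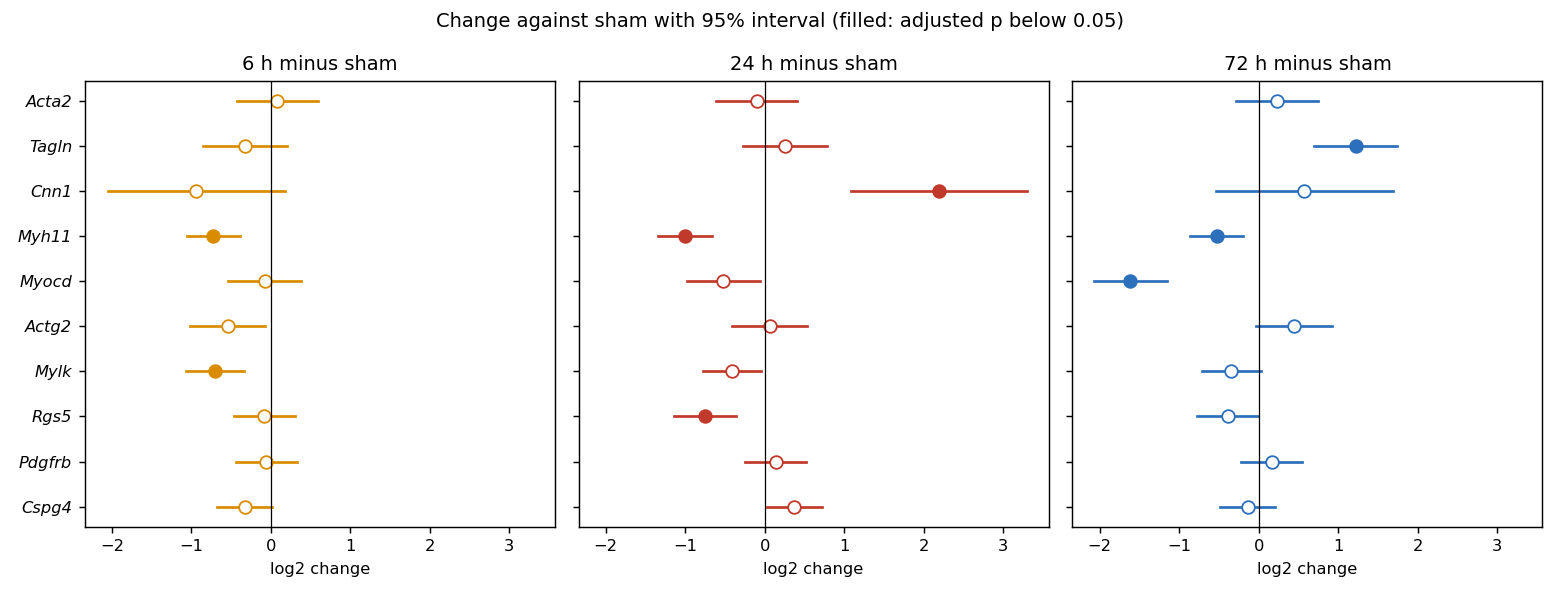
Change of each gene against sham at 6, 24 and 72 h (horizontal axes, log2), with the 95% interval of the limma fit and 4 arrays per group. Filled points passed the test at an adjusted p below 0.05, and the vertical line marks no change. The called changes run from -1.61 (Myocd, 72 h) to 2.19 (Cnn1, 24 h), and 7 of 10 genes are open at 24 h and at 72 h.

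Other pericyte and mural cell genes fell most often at 6 h, when none of the 3 pericyte genes of the set had passed. Over all genes 7.92% rose and 12.3% fell at 6 h, 13.8% and 12.3% at 24 h, and 11.5% and 10.3% at 72 h. Of 17 measured of 19, 1 rose and 10 fell at 6 h, and 2 rose and 4 fell at 24 and at 72 h. Medians were -0.54, -0.12 and -0.12, and with centring on hybridization spike-ins they were 0.19 at 24 h (2 higher, 1 lower) and 0.38 at 72 h (5 higher, 1 lower), with 0.07 at 72 h (3 each way) under poly-A centring. Kcnj8 and Abcc9 encode the pore and the sulfonylurea receptor of a potassium channel of pericytes and smooth muscle, and Abcc9 is also made in cardiomyocytes. Kcnj8 fell by 0.96, 0.73 and 0.79 (adjusted p = 0.000636, 0.00496 and 0.00361), and Abcc9 fell by 0.54, 1.33 and 0.73 (0.0110, 1.60e-06 and 0.00101).

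Angpt1, the angiopoietin that mural cells send to the endothelium, fell by 1.58 ± 0.25 at 6 h (adjusted p = 9.88e-05), and Steap4, a metalloreductase, rose by 1.91 ± 0.20 (1.22e-06). Anpep, an aminopeptidase of pericytes and also of fibroblasts and myeloid cells, fell by 1.64 at 6 h (adjusted p = 9.57e-06) and rose by 2.99 ± 0.21 at 72 h (6.47e-09). Cd248, endosialin, fell by 1.54 ± 0.22 at 6 h (adjusted p = 4.43e-05) and rose by 1.21 at 72 h (0.000529). Notch3, a receptor of vascular smooth muscle, passed at 6 h (change -0.58, adjusted p = 0.0234) with all group means under the background level. Higd1b, Cox4i2, Colec11 and Itga8 of the same list also had all group means under it.

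In the PDGF family 0 of 5 measured genes passed at 6 h, 1 rose and 1 fell at 24 h, and 2 rose and 1 fell at 72 h. Over all genes 7.92% rose and 12.3% fell at 6 h, 13.8% and 12.3% at 24 h, and 11.5% and 10.3% at 72 h. Pdgfb, the ligand of Pdgfrb, changed by 0.07, 0.02 and -0.34 (adjusted p = 0.843, 0.938 and 0.154). Pdgfc rose by 2.59 ± 0.20 at 72 h (adjusted p = 2.30e-08), Pdgfrl, a receptor-like gene, by 2.11 ± 0.27 (1.29e-05), and Pdgfd fell by 1.17 ± 0.24 at 24 h (0.000994). The medians of 0.07, 0.02 and 0.32 turned to -0.15 at 6 h under hybridization centring, and to -0.27 and -0.07 at 6 and 24 h under poly-A centring. Pdgfra, the fibroblast receptor, was not analysed here.

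Activated fibroblast and myofibroblast genes had higher median changes than the 10 genes at 24 and 72 h, a difference that was not tested. Of 19, 5 rose and 1 fell at 6 h, 13 rose at 24 h and 19 rose at 72 h, with medians of 0.25, 1.49 and 2.32 (the first -0.08 under poly-A centring, where 4 passed as higher and 5 as lower). All 19 also rose at 72 h under each spike-in centring. As deposited, 7.92%, 13.8% and 11.5% of all genes passed as higher at 6, 24 and 72 h, and 12.3%, 12.3% and 10.3% as lower. At 72 h Tnc, the matrix glycoprotein tenascin C, rose by 7.86 ± 0.36, Lox, a collagen cross-linking enzyme, by 6.07 ± 0.24, Fn1, fibronectin, by 5.93 ± 0.39 and Col1a1, a fibrillar collagen chain, by 5.78 ± 0.22. Postn, periostin, rose by 1.02, 3.10 and 5.73 at 6, 24 and 72 h. Among the 10 genes, Tagln alone passed as higher at 72 h, with 1.22, while Myh11 and Myocd passed as lower. Acta2 changed by 0.23 and did not pass.

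**Figure D4:**
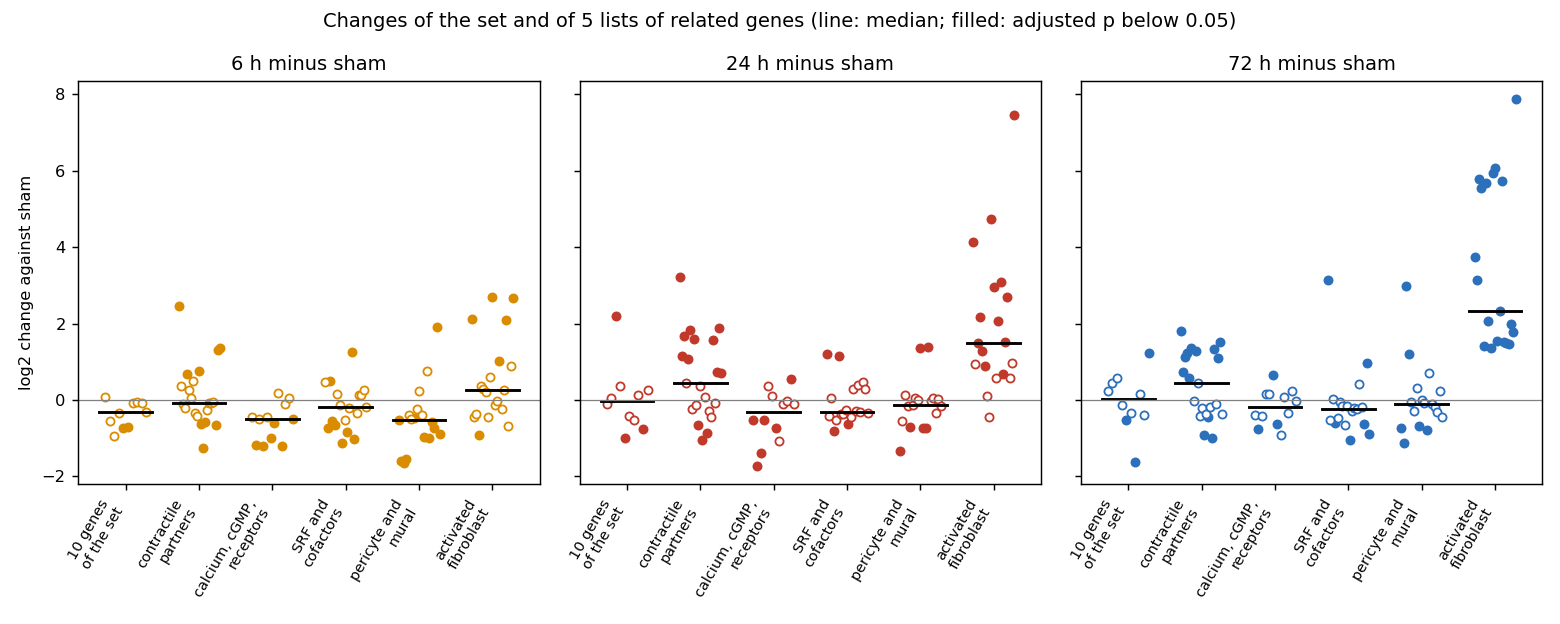
Log2 change against sham at 6, 24 and 72 h for the 10 genes and for 5 lists of related genes. Each point is a gene, filled where the adjusted p was below 0.05, and the black line is the list's median. The median of the 10 genes stays between -0.33 and 0.02, while the activated fibroblast list reaches 2.32 at 72 h.

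Between times, 3 of 10 genes passed from 6 to 24 h, where 28.2% of all genes did (17.3% higher, 10.9% lower). From 24 to 72 h 2 of 10 passed, where 12.9% did (6.85% higher, 6.07% lower), and from 6 to 72 h 4 of 10, where 30.6% did (17.5% higher, 13.1% lower). From 6 to 24 h Cnn1 and Cspg4 rose and Rgs5 fell, with 4 genes without overlap where 24.9% of all genes had none. From 24 to 72 h Tagln rose and Myocd fell, with 3 genes without overlap (15.6% of all genes). From 6 to 72 h Tagln, Cnn1 and Actg2 rose and Myocd fell, with 4 genes without overlap (30.5%). The comparisons share arrays and are not independent of each other.

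The arrays of a group differed in how the genes ranked. Among the 72 h arrays, replicate 22 was the lowest for 7 of 10 genes, replicate 23 the highest for Acta2, Tagln, Pdgfrb and Cspg4, and replicate 20 the highest for Cnn1, Myh11, Mylk and Rgs5. At 24 h replicate 15 was the highest for Cnn1, Myocd, Pdgfrb and Cspg4 and the lowest for 4 others. At 6 h replicate 8 was the lowest for 5 of 10. At 72 h the array highest for Acta2 and Tagln was not the one highest for Myh11 and Mylk.

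Markers of other cell types moved as well, given here as ranges over arrays of the mean log2 signal, in the order sham, 6, 24 and 72 h. Macrophage markers rose in 3 of 7 genes at 6 h and 7 of 7 at 24 and 72 h, with ranges of 8.13 to 8.42, 8.84 to 9.21, 9.99 to 11.38 and 10.98 to 11.76. Resting fibroblast markers ranged from 12.72 to 12.98, 12.30 to 12.76, 11.80 to 12.64 and 13.52 to 14.04. Of 7, 0 rose and 2 fell at 6 h, 1 rose and 2 fell at 24 h, and 6 rose at 72 h (4 under median centring). Cardiomyocyte markers fell in 3 of 8 genes at 24 h and 1 of 8 at 72 h, with ranges of 17.97 to 18.06, 17.90 to 17.97, 17.47 to 17.81 and 17.71 to 17.93. Endothelial markers passed in 2 of 8 genes each way at 6 h and fell in 2 of 8 at 24 and 72 h, with ranges of 11.52 to 11.78, 11.33 to 11.93, 11.32 to 11.68 and 11.22 to 11.44. Under hybridization spike-in centring, cardiomyocyte markers had 1 lower at 24 h and 3 higher and 0 lower at 72 h. Endothelial markers then had 0 higher and 2 lower at 6 h, 3 and 1 at 24 h and 1 and 0 at 72 h, and macrophage markers 2 each way at 6 h. As deposited, 7.92%, 13.8% and 11.5% of all genes passed as higher at 6, 24 and 72 h, and 12.3%, 12.3% and 10.3% as lower. The part of these cell types in the changes of the 10 genes was not tested.

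Atrial markers passed in 1 of 8 genes at 6 h (lower), in 1 each way at 24 h, and in 2 higher and 1 lower at 72 h. Their ranges were 7.85 to 8.22, 7.68 to 8.07, 7.91 to 10.7 and 8.27 to 8.86, and Myl7, Sln, Bmp10 and Dkk3 had group means under background throughout. The high array at 24 h was replicate 16, where Myl4 read 15.22 and Myl7 11.54. Myl7 read 3.84 to 4.15 on the other 24 h arrays, so its group mean does not show its level on replicate 16. That array was the highest of its group for Acta2, Tagln, Actg2 and Mylk and the lowest for 3 genes. Without 24 h replicates 16 and 17 together, the rise of Cnn1 at 24 h was 2.81 (adjusted p = 0.000115) and the change of Rgs5 -0.94 (0.00375). Replicate 17 had Myl4 at 7.93 and the lowest Cnn1 signal of its group, 6.67, where replicate 16 read 9.81. The joint removal therefore does not show the effect of leaving out replicate 16 alone. With replicate 16 alone left out, 1 of the 10 genes rose and 2 fell at 24 h against sham, as with all arrays. Of all 19505 genes, 2328 were then called higher and 1890 lower.

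The spike-in controls also moved with the groups, and this shifts all genes together. Each spike-in mean rests on 4 probe sets. Poly-A spike-ins averaged 6.76 to 6.89 on sham arrays, 7.04 to 7.30 at 6 h, 6.78 to 7.12 at 24 h and 6.51 to 6.94 at 72 h. These lie near the background level of 6.76, and on 72 h replicates 20, 22 and 23 under it. Hybridization spike-ins averaged 10.45 to 10.60 on sham arrays, 10.69 to 10.80 at 6 h, 9.99 to 10.48 at 24 h and 9.86 to 10.17 at 72 h. Centring on them moved the median of all genes to -0.26, 0.24 and 0.40 at 6, 24 and 72 h, and centring on poly-A spike-ins to -0.37, -0.16 and 0.09. Of all calls against sham, 39.2%, 53.0% and 52.9% were higher as deposited, 19.6%, 84.4% and 96.7% with hybridization centring, and 12.4%, 45.1% and 82.3% with poly-A centring. Between times (6 to 24 h, 24 to 72 h and 6 to 72 h) the shares were 61.2%, 53.1% and 57.2% as deposited, 94.8%, 79.9% and 96.6%, and 85.5%, 86.7% and 93.7%. Among the 10 genes, hybridization centring gave 0 higher and 3 lower at 6 h, 2 and 1 at 24 h and 4 and 1 at 72 h, and poly-A centring 0 and 6, 1 and 3, and 1 and 1. Of all 19505 genes, hybridization centring gave 975 higher and 3993 lower, 4546 and 841, and 7270 and 247 at these times. Poly-A centring gave 864 and 6087, 2033 and 2479, and 2752 and 590.

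The genes with time courses closest to Acta2, Tagln and Rgs5 were sought by the root mean square difference of the 3 changes against sham among 9124 genes above background. For Acta2 they were Cmss1 (0.022), Gramd1a (0.039), Rtraf, Flot2 and Snrnp48. For Tagln they were Scamp5 (0.095), Slc43a2, the fibril-associated collagen Col14a1, Dtx3l and H4c12 (0.121), further off than for the others. For Rgs5 they were Nipsnap2 (0.013), Ndrg4 (0.033), Ugp2, Dhrs4 and Gm1818 (0.038). None of the other 9 genes of the set was among the nearest of any of these. The likeness covers 3 values taken against the same sham arrays.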

How the data were processed

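Per the submitters' processing notes, the authors made the values with Affymetrix Expression Console, with version, summarization, filters and genome build not given in the sources used here. Deposited values, 1 per probe set and array, were taken as log2 signals (the base is not stated) and used as deposited; array medians were 5.84 to 5.95. The design text names another Affymetrix array than the table's identifiers, and the series title other hours than the sample labels; identifiers and labels were followed. The platform annotation named 19572 of 28846 probe sets, and the one with the highest mean was kept for 55 genes with several, leaving 19505.

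Group means over all 16 arrays were fitted with lmFit and eBayes in limma 3.58.1 under R 4.3.3 (residual degrees of freedom 12, prior 6.943) for 6 comparisons and an F test, with Benjamini-Hochberg adjustment over all genes and a threshold of 0.05. Precision is limited by the number of arrays, and the median SE against sham was 0.183. The fit was tested on simulated data. No 2 arrays were identical.

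The members and the 12 lists of related genes (137 of 150 genes measured) were chosen with earlier results of these data known. Named genes are the 10 members, up to 4 of each list of related genes with the largest change past the threshold, 11 genes fixed by name, and the 5 nearest time courses of Acta2, Tagln and Rgs5; exceptions are stated. Alternatives were quantile and median normalization, both spike-in centrings, averaged probe sets, dim-gene filters (25th percentile, or 75th of negative controls), trend and robust moderation, array weights, fits of 2 groups, and leaving out each array or 24 h replicates 16 and 17. Leaving out 72 h replicates 21 and 23 together was added after the values were seen. Figures were drawn with matplotlib 3.10.9.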

Additional observations from a re-analysis of the deposited data

Results flagged for a closer look

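In sham hearts, Rgs5 replicate 3 stood apart, at 15.40 where the other 3 arrays read 15.66 to 15.68, a gap of 0.925 of the group's range and above Dixon's 95% critical value for 4 samples. This was 1 of 40 sets of 4 arrays examined, and chance alone flags about 1 in 20.

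The change against sham differed between times in 9 tests of the difference itself. Of the 10 genes, 3 passed from 6 to 24 h, 2 from 24 to 72 h and 4 from 6 to 72 h. Of all genes, 28.2%, 12.9% and 30.6% passed in these comparisons, so the counts were near this background. Tagln was higher at 72 h than at 24 h by 0.97 and than at 6 h by 1.54. Cnn1 was higher at 24 h than at 6 h by 3.13 and at 72 h than at 6 h by 1.51. Myocd changed by -1.10 from 24 to 72 h and by -1.54 from 6 to 72 h. Actg2 was higher at 72 h than at 6 h by 0.99, with all values under background. Rgs5 changed by -0.67 and Cspg4 by 0.70 from 6 to 24 h. Without 72 h replicates 21 and 23, the difference of Tagln between 72 and 24 h (0.53), that of Actg2 (0.72) and that of Cnn1 between 72 and 6 h (1.46) did not pass, and that of Rgs5 did not pass under either spike-in centring.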

How the results depend on the processing

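No paired analysis was possible because no replicate number is shared between groups. The count of the 10 genes past the threshold was 2, 3 and 3 against sham at 6, 24 and 72 h, and 3, 2 and 4 from 6 to 24 h, 24 to 72 h and 6 to 72 h. Quantile normalization gave 5 at 24 h, 5 from 6 to 24 h and 4 from 24 to 72 h, and median centring 5 at 24 h and 4 from 24 to 72 h. Of all 19505 genes, quantile normalization called 2475 higher and 2658 lower at 24 h. It called 2886 and 2452 from 6 to 24 h, and 1331 and 1238 from 24 to 72 h. Median centring called 2353 and 3177 at 24 h, and 1213 and 1292 from 24 to 72 h. Hybridization spike-in centring gave 5 at 72 h, 6 from 6 to 24 h and 9 from 6 to 72 h, and poly-A centring 6 at 6 h, 4 from 24 to 72 h and 9 from 6 to 72 h. Of all 19505 genes, hybridization centring called 7270 higher and 247 lower at 72 h. It called 9811 and 539 from 6 to 24 h, and 13629 and 479 from 6 to 72 h. Poly-A centring called 864 and 6087 at 6 h, 2624 and 401 from 24 to 72 h, and 9167 and 621 from 6 to 72 h. From 24 to 72 h both filters on dim genes and array weights gave 5, leaving out 24 h replicates 16 and 17 gave 4, and leaving out 72 h replicates 21 and 23 gave 1, and 2 from 6 to 72 h. From 24 to 72 h the filters called 1363 higher and 1232 lower of 14628 genes, and 1279 and 1322 of 9124. Array weights called 1378 and 1373 of all 19505. Leaving out 24 h replicates 16 and 17 called 904 higher and 1045 lower there. Leaving out 72 h replicates 21 and 23 called 860 and 704 from 24 to 72 h, and 2552 and 1514 from 6 to 72 h. With 1 array left out at a time the count from 24 to 72 h ran from 2 to 4. It was 4 without 24 h replicate 17, where 1327 of all genes were called higher and 1453 lower. Every other count of the 10 genes stayed within 1.5 times. Of 216 counts of list genes against sham (12 lists, 3 times and the 6 settings that rescaled the arrays or left out a pair of them), 22 moved by more than that, 9 of them under hybridization and 6 under poly-A spike-in centring. No called value changed sign. Of single values, 10 calls were lost and 57 gained under the other settings, and 9 lost and 17 gained with 1 array left out; 22 and 16 values that passed neither way changed sign. Actg2 was not tested under the negative-control filter. Signal over background limits Cnn1, Actg2, Notch3 and other genes with group means under the background level. It also limits the sizes of the rises of Tnc, Lox, Pdgfc, Pdgfrl and Cnn2, whose sham means were under that level.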
